A study of Homo sapiens with 20 samples.

Results

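This account covers RUNX1 binding at 10 inflammatory cytokine and inflammasome genes of human THP-1 cells: the interleukin-1 genes IL1A, IL1B and IL1RN, the cytokines TNF, IL6, OSM and IL10, and the inflammasome genes NLRP3, PYCARD and CASP1. A RUNX1 peak counted as belonging to a gene where it lay within 50 kb of the span that RefSeq (assembly GRCh38.p14) gives the gene. This rule took 33 of the 26642 peaks in the table by their position. The genes themselves were chosen with earlier results of these data known. THP-1 is an established human monocytic leukemia line. The knockdown cells carried an shRNA cassette directed at PU.1, the control cells carried a scramble cassette in its place, and both cassettes were switched on with doxycycline. Chromatin bound by RUNX1 was precipitated and sequenced (ChIP-seq) in 6 control and 6 knockdown libraries, made in 2 experimental rounds that the labels call batches, with 3 control and 2 knockdown libraries in batch 1 and 3 control and 4 knockdown libraries in batch 2. The study describes the 6 libraries of a group as cell line replicates with immunoprecipitations and libraries of their own, and the sources used here do not say whether a line is a single clone. The assay does not measure PU.1, so these data hold no check of the knockdown itself, and 8 further libraries made with an unspecific IgG antibody were not analysed here. Reads within peaks ranged from 630247 to 1199004 per control library and from 938745 to 1719840 per knockdown library.

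RUNX1 and PU.1 are transcription factors of the blood lineage that can bind the same enhancers in monocytes and macrophages. These cells release cytokines such as IL-1α, IL-1β and TNF as early signals of inflammation, while the IL-1 receptor antagonist and IL-10 restrain it. IL-1β is made as an inactive precursor, and an inflammasome, in which a sensor such as NLRP3 recruits the adaptor ASC (encoded by PYCARD) and the protease caspase-1, cuts it into its active form. In the sections below, values are normalized counts, which are read counts of a peak divided by the size factor of the library. A fold change compares knockdown with control. Unless stated otherwise it is the estimate of a fit that accounts for batch, so it can differ from the ratio of the printed means.

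Of the 10 genes, 9 had at least 1 RUNX1 peak within 50 kb, and 5 of the 33 peaks lay near TNF, 5 near NLRP3 and 7 near OSM. CASP1, the protease of the inflammasome, had none: its nearest peak lay 355920 bp away. One peak lay within reach of both IL1A and IL1B, so there are 34 pairs of gene and peak. The peaks were 465 to 1860 bp wide with a median of 869 bp, beside 889 bp over all peaks, and their median level was 30.7 normalized counts per kb, beside 33.1 over all peaks. Most lay away from the genes they were assigned to. Only 6 overlapped the span of one of the 10 genes, 15 had one of them as the nearest protein-coding gene, and 19 overlapped some protein-coding gene. A promoter window, here 250 bases before to 50 bases after an annotated start of a protein-coding gene, was touched by 6 peaks, and among the 10 genes only NLRP3 and IL1RN had a peak over a promoter window of their own.

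The sequences of these promoter peaks are shown because NLRP3 and IL1RN were the genes with RUNX1 at a start site of their own. The promoter of LST1, next to TNF, is shown because it held the only promoter peak called in the DESeq2 test below. The promoter of PSD4, the strongest peak of IL1RN and one that did not pass the test, is set beside it. RefSeq windows were given for 8 of the 10 genes. Letters were searched on both strands in the 250 bases before each start: the RUNX core TGTGGT, which reads as ACCACA on the other strand, its variant TGCGGT, the PU.1 core GAGGAA, which reads as TTCCTC on the other strand, the C/EBP-like TTGCGCAA and the AP-1 letters TGANTCA, none of which overlapped another in the stretches below. Capitals mark every match, and sequences run 5′ to 3′ on the plus strand of GRCh38.p14.
NLRP3, chr1:247416095-247416124, RUNX core 66 bases before the start: atgtaagtggagACCACAtccttcctgccc
NLRP3, chr1:247416148-247416172, PU.1 core 13 bases before the start: aattcattgcatTTCCTCtctagct
IL1RN, chr2:113127561-113127590, RUNX core 25 bases before the start: atttctttataaACCACAactctgggcccg
LST1, chr6:31586027-31586276, with 2 PU.1 cores and no RUNX core: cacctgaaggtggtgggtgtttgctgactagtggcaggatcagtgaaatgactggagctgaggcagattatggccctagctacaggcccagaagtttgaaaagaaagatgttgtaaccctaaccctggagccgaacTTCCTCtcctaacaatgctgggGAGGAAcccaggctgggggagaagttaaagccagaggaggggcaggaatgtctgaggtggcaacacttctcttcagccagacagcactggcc
PSD4, chr2:113173721-113173970, with 1 RUNX core and no PU.1 core: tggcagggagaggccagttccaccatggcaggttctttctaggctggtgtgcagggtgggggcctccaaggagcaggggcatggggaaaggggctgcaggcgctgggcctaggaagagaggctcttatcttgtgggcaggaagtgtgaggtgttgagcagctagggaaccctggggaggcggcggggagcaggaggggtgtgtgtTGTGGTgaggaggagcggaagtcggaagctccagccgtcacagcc
Across 35116 RefSeq windows of the same length, 11.0% held TGTGGT, 5.84% TGCGGT, 23.6% GAGGAA, 3.49% at least 2 copies of GAGGAA, 0.131% TTGCGCAA and 6.57% TGANTCA. A pair of PU.1 cores also lay in a window of NFKBIL1 under a peak that was not called, so such a pair is not particular to the LST1 promoter. Windows of NLRP3 and CKAP2L under peaks that DESeq2 did not call held 1 PU.1 core each, while those of IL1RN and PSD4 under a peak held none. A link between these letters and the change of a peak was not tested. A match is a description of letters and not a measured binding site. Only these exact letters were searched, in windows of 250 bases, while the LST1 peak is 1860 bp and the PSD4 peak 1582 bp wide. A window without a core therefore does not show that the peak lacks a site. The 2 NLRP3 stretches lie within the gene's span, just before an annotated start, as does the IL1RN stretch.

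In a DESeq2 Wald test over the whole table with batch as a covariate, 15 of the 33 peaks changed (FDR under 0.05 by Benjamini-Hochberg, fold change over 1.1), 9 of them gained and 6 lost in the knockdown. Over all peaks 42.0% were called, 21.3% as gained and 20.7% as lost, so the share of called peaks near these genes, 45.5%, was close to that of the table. Called peaks lay near 7 of the 9 genes with peaks, and IL1RN and IL6 had none. A change over 2-fold was called at 6 peaks, 3 in each direction, where the table had 17.1%. The median log2 fold change of the 33 peaks was 0.08, beside -0.02 over all peaks. For 11 peaks both groups were separated within each batch, 6 with the knockdown above and 5 with it below, beside 28.3% of all peaks (14.4% above, 13.9% below). EdgeR's quasi-likelihood test called all 15 of these peaks and 20 in total (12 gained, 8 lost), where it called 47.1% of the table (24.1% gained, 22.9% lost).

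**Figure D1:**
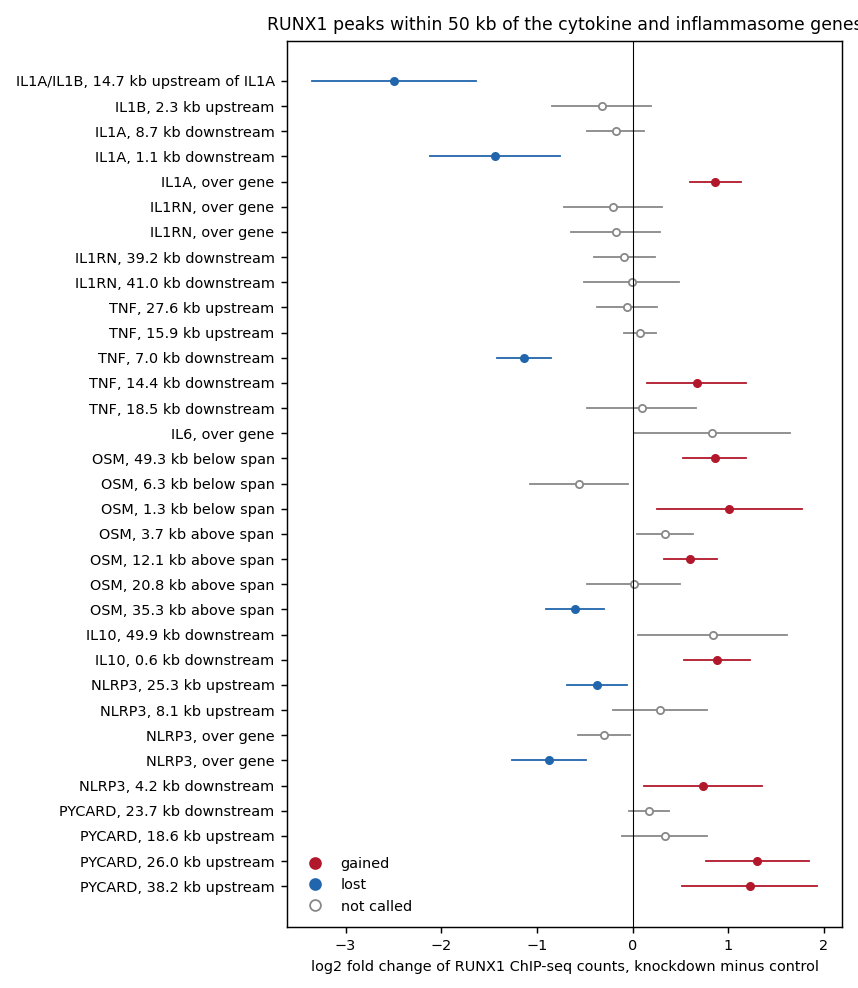
Log2 fold change of each of the 33 peaks (x axis, knockdown minus control) with its 95% interval, in rows named by gene and distance from the gene span; filled red points were gained, filled blue points lost and open points not called. The range runs from -2.49 at the peak between IL1A and IL1B to 1.31 near PYCARD, and no point of the IL1RN rows is filled.

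IL1A and IL1B encode the alarm cytokines IL-1α and IL-1β, which act on the same receptor and lie next to each other on chromosome 2. RUNX1 fell at 2 peaks that flank IL1A and rose at the strong peak over the gene. The peak between both genes, at chr2:112799173-112799694, lies 14680 bp upstream of IL1A and 30057 bp downstream of IL1B. Its normalized counts were 12.1 at the lowest, 14.5 at the median and 24.7 at the highest in the 6 control libraries, and 1.19, 1.85 and 5.29 in the 6 knockdown libraries. Every knockdown library lay below every control library. The mean was 15.9 ± 4.50 (SD, n = 6) in the control and 2.57 ± 1.67 (SD, n = 6) in the knockdown. The fitted loss was 5.61-fold (log2 fold change -2.49 ± 0.44 SE, adjusted p = 1.57e-07), the largest among the 33 peaks. The peak held few reads, 1 to 19 per library, and its mean level per kb over both groups stood at percentile 1.98 of all peaks. The loss itself lowers that mean. The level was 30.5 per kb in the control and 4.91 per kb in the knockdown, beside a median of 33.1 over all peaks and both groups.

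At chr2:112772333-112772868, 1057 bp downstream of IL1A, counts spanned 17.3 to 26.0 in the control (median 20.8) and 1.83 to 13.1 in the knockdown (median 8.39). The groups did not overlap, and the level fell 2.71-fold (log2 fold change -1.44 ± 0.35 SE, adjusted p = 1.69e-04). Only 3234 bp away, the peak over IL1A at chr2:112776103-112777298 moved the other way. Its counts were 71.5 at the lowest, 99.8 at the median and 142 at the highest in the control, and 151, 168 and 236 in the knockdown. Again the groups did not overlap, here with the knockdown above, and the level rose 1.82-fold (log2 fold change 0.87 ± 0.14 SE, adjusted p = 5.43e-09). This peak stood at the 98.9th percentile of all peaks in level per kb, at 82.9 per kb in the control and 149 per kb in the knockdown.

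The remaining peaks of the pair of genes did not pass the test. The peak nearest IL1B, 2347 bp upstream at chr2:112839126-112839999, had 18.4 to 29.3 normalized counts in the control (median 23.5) and 8.59 to 28.9 in the knockdown (median 20.2), and the groups overlapped (log2 fold change -0.32 ± 0.27 SE, adjusted p = 0.339). The peak over the promoter of CKAP2L, 8726 bp downstream of IL1A, had a log2 fold change of -0.18 ± 0.15 SE (adjusted p = 0.365).

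IL1RN encodes the receptor antagonist that blocks both IL-1 cytokines, and none of its 4 peaks passed the test. The peak over its promoter, at chr2:113127174-113128024, whose RUNX core is printed above, had 20.0 to 37.7 counts in the control (median 28.98) and 17.8 to 39.3 in the knockdown (median 23.3). The groups overlapped throughout, with a log2 fold change of -0.18 and a 95% interval of -0.65 to 0.29 (adjusted p = 0.581). The naming rule took the other peak over the gene, and this one was added after its values were seen because its sequence is shown. That other peak, at chr2:113111792-113112364, had a log2 fold change of -0.20 with an interval of -0.71 to 0.31 (adjusted p = 0.568). The strongest peak of the gene, over the promoter of PSD4 and 39155 bp downstream, had -0.08 with an interval of -0.41 to 0.24 (adjusted p = 0.714). All of these intervals include -0.37, the log2 fold change of the loss called upstream of NLRP3.

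TNF, which encodes the tumor necrosis factor, lies in the gene-dense class III region of the major histocompatibility complex, and no peak overlapped the gene or its promoter window. The nearest peak, 7030 bp downstream at chr6:31585366-31587225, spans the promoter of LST1, a gene of leukocytes. RefSeq gives 3 windows for it under this peak, each with 2 PU.1 cores and no RUNX core, and the most upstream is printed above. Its counts were 94.8 at the lowest, 102 at the median and 127 at the highest in the control, and 33.3, 41.1 and 67.6 in the knockdown. No knockdown library came near the control range. The mean there fell from 105 ± 11.3 (SD, n = 6) to 45.8 ± 13.7 (SD, n = 6). The fitted loss was 2.20-fold, with the smallest adjusted p of the 33 peaks (log2 fold change -1.14 ± 0.14 SE, adjusted p = 1.22e-13). It was the only one of the 6 promoter peaks that DESeq2 called. EdgeR called this peak and also the NLRP3 promoter peak lost (adjusted p = 0.0440 for NLRP3).

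A further 5518 bp along, at chr6:31592744-31593350 within NCR3, a receptor gene of natural killer cells, RUNX1 rose 1.59-fold. Counts were 10.5 to 22.6 in the control (median 13.6) and 14.3 to 24.7 in the knockdown (median 24.0). The groups overlapped through knockdown replicate 3 at 14.3, while the other knockdown libraries lay above all controls (log2 fold change 0.67 ± 0.26 SE, adjusted p = 0.0291). This call is not firm: it was lost (adjusted p 0.0529 to 0.111) when any of control replicates 3, 5 and 6 or knockdown replicates 1, 2, 4, 5 and 6 was left out. The strongest peak near any of the 10 genes, 15885 bp upstream of TNF within NFKBIL1 at chr6:31558503-31559680, showed 192.5 to 239.7 counts in the control (median 209) and 204 to 248 in the knockdown (median 222). It stood at the 99.9th percentile in level per kb, and its groups overlapped, with a log2 fold change of 0.08 and a narrow interval of -0.09 to 0.24 (adjusted p = 0.508).

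**Figure D2:**
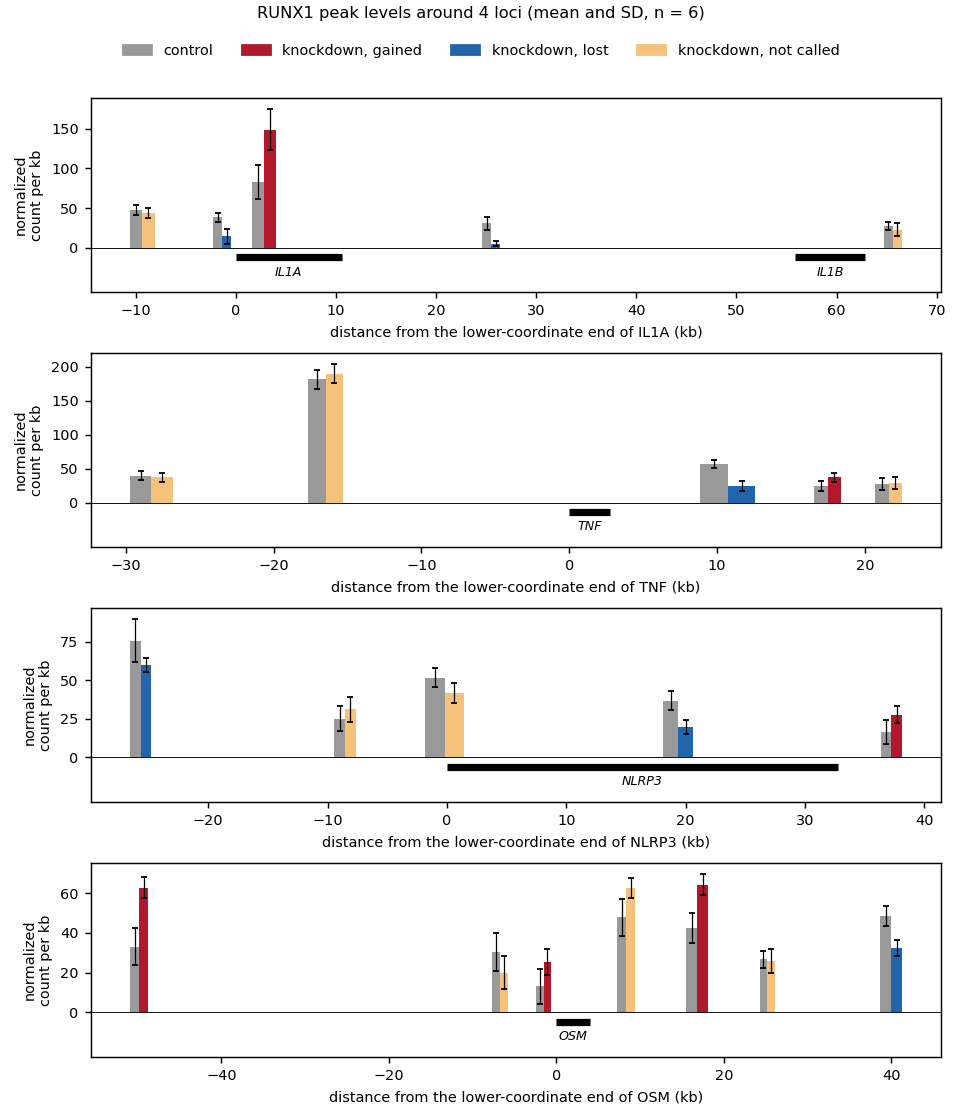
Mean RUNX1 level of each peak in normalized counts per kb (y axis; lines are SD, n = 6 libraries) against distance in kb from the lower-coordinate end of IL1A, TNF, NLRP3 or OSM (x axis); each pair of bars is centred on its peak, each bar is as wide as the peak or at least 0.9 kb, and black bars are gene spans. Gray is control and colors are knockdown, with red for gained, blue for lost and yellow for not called, and every panel holds at least 1 red and 1 blue bar.

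IL6 and OSM encode cytokines that signal through receptors sharing the gp130 chain. IL6 had a single peak, over the gene at chr7:22731154-22731705, and it was one of the weakest of the table, at percentile 0.601 in level per kb. Counts were 2.79 at the lowest, 6.10 at the median and 11.5 at the highest in the control, and 5.48, 11.7 and 17.8 in the knockdown, with groups that overlapped. The level was not called (log2 fold change 0.83 ± 0.41 SE, adjusted p = 0.0931), although edgeR gave an adjusted p of 0.0364. With 3 to 27 raw reads per library, the 95% interval of the log2 fold change ran from 0.02 to 1.64.

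OSM encodes oncostatin M, and with 7 peaks it had the most of the 10 genes. Its strand is not given in the reference table used here, so positions are called below or above the gene by coordinate. RUNX1 rose at 3 peaks and fell at 1. The farthest, at chr22:30212449-30213543 and 49286 bp below the gene, is nearest to HORMAD2. It had 25.4 to 50.4 counts in the control (median 34.4) and 60.6 to 74.8 in the knockdown (median 69.2), with no overlap between the groups (1.81-fold, log2 fold change 0.86 ± 0.17 SE, adjusted p = 2.38e-06). At chr22:30278967-30280290, 12116 bp above the gene, counts were 41.5 to 72.8 in the control (median 54.9) and 77.2 to 93.2 in the knockdown (median 84.9). Here too all knockdown libraries lay above all control libraries, with a 1.52-fold rise (log2 fold change 0.60 ± 0.14 SE, adjusted p = 1.11e-04).

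The only loss called near OSM lay farther up, within TBC1D10A at chr22:30302126-30303434 and 35275 bp above the gene. Counts were 52.0 to 71.4 in the control (median 63.7) and 34.4 to 48.5 in the knockdown (median 41.9). The groups did not overlap, and the level fell 1.51-fold (log2 fold change -0.60 ± 0.16 SE, adjusted p = 5.66e-04). The gain 12116 bp above OSM and this loss are 21835 bp apart. A further peak, 6299 bp below OSM at chr22:30255611-30256530, had 15.0 to 40.0 counts in the control (median 28.8) and 8.39 to 31.1 in the knockdown (median 17.2). Its groups overlapped and it was not called (log2 fold change -0.56 ± 0.26 SE, adjusted p = 0.0747), but edgeR (adjusted p = 0.0440) and centring on the median of its 10 Mb window (adjusted p = 0.0350) both called it lost; it was added after its values were seen.

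The peak nearest OSM, 1252 bp below it at chr22:30261039-30261577, was weak, with 1.15 to 13.9 counts in the control (median 7.26) and 9.32 to 17.9 in the knockdown (median 13.2). The groups overlapped, and the fitted rise of 2.02-fold passed the test narrowly (log2 fold change 1.01 ± 0.39 SE, adjusted p = 0.0248). Leaving out any of control replicates 2, 3 and 6 or knockdown replicates 1, 2 and 5 ended this call (adjusted p 0.0617 to 0.112). The strong peak 3748 bp above OSM, at chr22:30270599-30271710, missed the threshold by little (53.3 ± 10.3 in the control and 69.6 ± 5.80 in the knockdown, SD, n = 6; log2 fold change 0.34 ± 0.15 SE, adjusted p = 0.0509). Its knockdown libraries lay above the control libraries within each batch, and edgeR called it (adjusted p = 0.0246).

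IL10 encodes an anti-inflammatory cytokine, and RUNX1 rose at the peak just behind the gene, 572 bp downstream at chr1:206766166-206767030. Counts were 27.7 at the lowest, 31.6 at the median and 55.5 at the highest in the control, and 56.1, 63.6 and 77.0 in the knockdown. The groups did not overlap, though the highest control and the lowest knockdown library were close to each other. The mean rose from 36.2 ± 10.6 to 64.3 ± 8.23 (SD, n = 6), and the fitted gain was 1.84-fold (log2 fold change 0.88 ± 0.18 SE, adjusted p = 4.31e-06). The second peak, within MAPKAPK2 and 49876 bp downstream of IL10, had 0 to 12.1 counts in the control (median 5.82) and 8.39 to 13.9 in the knockdown (median 13.2). It was not called (log2 fold change 0.84 ± 0.40 SE, adjusted p = 0.0761), though edgeR (adjusted p = 0.0499) and the fit without a batch term (adjusted p = 0.0488) called it gained.

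**Figure D3:**
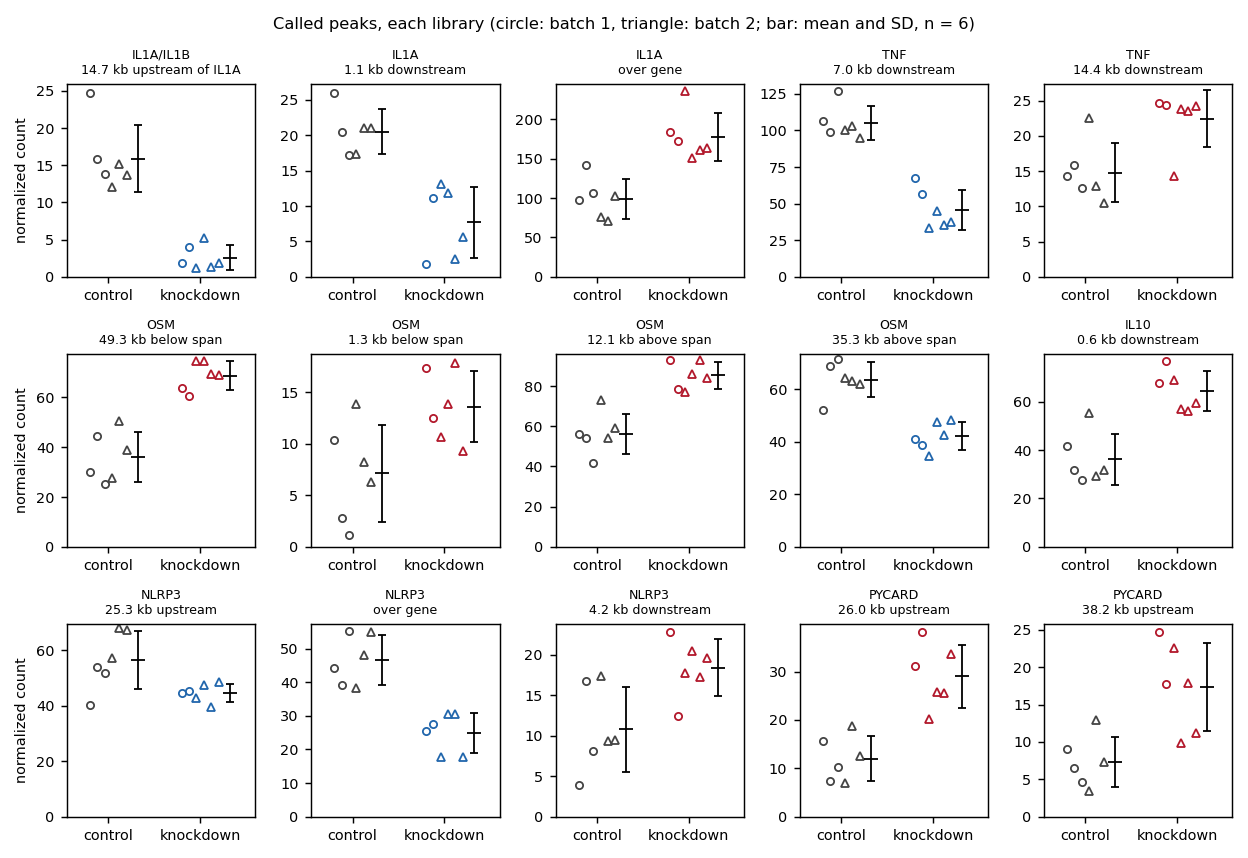
Normalized count (y axis) of each of the 15 called peaks in every library, in panels named by gene and distance; circles are batch 1, triangles batch 2, and the black bar is the mean with SD (n = 6). In 10 panels no knockdown library reaches into the control range, while the panels for TNF at 14.4 kb, OSM at 1.3 kb, NLRP3 at 25.3 and 4.2 kb and PYCARD at 38.2 kb overlap.

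NLRP3 encodes the sensor that starts the best-known inflammasome. RUNX1 fell within the gene, while the promoter peak did not pass the test. The promoter peak, at chr1:247415079-247416704, contains both printed NLRP3 stretches. It had 72.8 to 99.6 counts in the control (median 83.6) and 49.9 to 79.0 in the knockdown (median 69.0), and the groups overlapped (log2 fold change -0.30 ± 0.14 SE, adjusted p = 0.0687; edgeR adjusted p = 0.0440). The peak inside the gene, at chr1:247434823-247436087, had 38.2 at the lowest, 46.1 at the median and 55.3 at the highest in the control, and 17.7, 26.6 and 30.6 in the knockdown. No knockdown library reached the control range. The mean fell from 46.6 ± 7.46 to 25.0 ± 5.88 (SD, n = 6), and the fitted loss was 1.83-fold (log2 fold change -0.87 ± 0.20 SE, adjusted p = 5.96e-05).

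Both further calls near NLRP3 were close to the threshold. At chr1:247452976-247453638, 4159 bp downstream and within the olfactory receptor gene OR2B11, counts were 3.90 to 17.3 in the control (median 9.43) and 12.5 to 22.8 in the knockdown (median 18.7). The groups overlapped (1.67-fold gain, log2 fold change 0.74 ± 0.31 SE, adjusted p = 0.0454), and the call ended without any of control replicates 1, 3, 5 and 6 or knockdown replicates 1, 3, 4, 5 and 6 (adjusted p 0.0543 to 0.185). At chr1:247390037-247390784, 25293 bp upstream, counts were 40.3 to 68.0 in the control (median 55.6) and 39.5 to 48.5 in the knockdown (median 45.1), again with overlap. The loss was 1.29-fold (log2 fold change -0.37 ± 0.16 SE, adjusted p = 0.0492), and it kept its call only when control replicate 1 was the library left out (adjusted p 0.0561 to 0.156 without any other).

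PYCARD encodes ASC, the adaptor that links NLRP3 to caspase-1. Its 4 peaks all lay over 18 kb away from the gene, and RUNX1 rose at 2 of them on the upstream side. At chr16:31228761-31229562, 26001 bp upstream and within TRIM72, counts were 6.94 at the lowest, 11.5 at the median and 18.8 at the highest in the control, and 20.2, 28.4 and 38.2 in the knockdown. The groups did not overlap, and the mean rose from 11.96 ± 4.65 to 29.04 ± 6.48 (SD, n = 6). The fitted rise was 2.47-fold (log2 fold change 1.31 ± 0.28 SE, adjusted p = 1.72e-05), the largest gain among the 33 peaks. At chr16:31240994-31241600, 38234 bp upstream, counts were 3.47 to 12.9 in the control (median 6.94) and 9.91 to 24.7 in the knockdown (median 17.8). These ranges overlapped, and the level rose 2.34-fold (log2 fold change 1.23 ± 0.36 SE, adjusted p = 0.00252).

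Neither of the other PYCARD peaks was called. The nearest, 18644 bp upstream within TRIM72, had a log2 fold change of 0.33 ± 0.23 SE (adjusted p = 0.237). Over the 18 peaks of all genes that were not called, log2 fold changes ran from -0.56 to 0.84 with SE up to 0.41, so a missed threshold there does not show that the levels were equal.

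Sums over all peaks of a gene set gains and losses together, and they move with which peaks were called, so they are given as a description without a test. The knockdown mean was 1.24 times the control mean over the 4 IL1A peaks, 0.890 times over the 5 TNF peaks, 0.834 times over the 5 NLRP3 peaks, 0.925 times over the 4 IL1RN peaks and 1.20 times over the 7 OSM peaks. It was 1.31 times over the 4 PYCARD peaks, 1.78 times over the 2 IL10 peaks and 1.71 times at the single IL6 peak. The IL1B value of 0.560 times rests on the peak of few reads that it shares with IL1A.

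Of the 33 peaks, 27 had the same sign in batch 1 and in batch 2, beside 21307 of the 26642 peaks in the table. The 15 called peaks were among them, but they had been selected by a fit of both batches, which favors equal signs. Alone, batch 1 called 5 of the 33 peaks, 3 gained and 2 lost, beside 12% of all peaks (5.38% gained, 6.61% lost). Batch 2 called 8, with 4 in each direction, beside 25.8% (12.8% gained, 13.1% lost). Of the 15 calls, 5 were made in both batches and 7 in neither. No such share is given for the calls of the whole table, so these counts are not compared with it. The peak over IL1A rose by 0.64 ± 0.23 SE on the log2 scale in batch 1 (adjusted p = 0.0434) and by 1.06 ± 0.18 SE in batch 2 (adjusted p = 1.98e-07). The LST1 promoter peak near TNF had -0.82 ± 0.26 SE in batch 1 (adjusted p = 0.0193) and -1.39 ± 0.20 SE in batch 2 (adjusted p = 1.20e-09). The peak inside NLRP3 had -0.77 ± 0.37 SE in batch 1, which did not pass the test alone (adjusted p = 0.160), and -0.94 ± 0.29 SE in batch 2 (adjusted p = 0.00688). The product of genotype and batch tests whether the effect differs between batches. After adjustment it was significant at 0 of the 33 peaks in DESeq2 and edgeR, and also at 0 of all 26642 peaks. The 0 at the 33 peaks therefore does not set them apart from the table. At an unadjusted p under 0.05 it was 0 by DESeq2, beside 2.51% of all peaks, and 3 by edgeR, beside 1424 of the 26642 peaks.

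**Figure D4:**
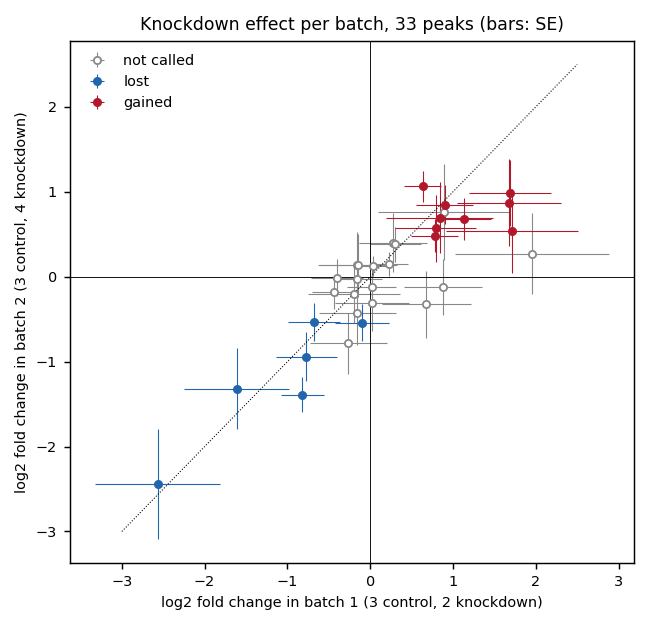
Log2 fold change in batch 1 (x axis) against batch 2 (y axis) for the 33 peaks, with SE as bars and a dotted line of equality; red points were gained, blue points lost and open points not called in the fit of both batches. All 15 colored points lie in the lower left or upper right quadrant, and the peak between IL1A and IL1B sits lowest at -2.57 and -2.44.

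The farthest peaks inside were those of IL10 at 49876 bp and OSM at 49286 bp, and the nearest outside lay 50883 bp from IL6 (log2 fold change 0.42, adjusted p = 0.335) and 53491 bp from IL1RN (-0.21, adjusted p = 0.538). A window of 10 kb held 16 peaks with 7 called (43.75%), and a window of 100 kb held 61 peaks with 28 called (45.9%), again near the 42.0% of the table.

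Partners of these genes were read out from 2 further lists, which leave out the 33 peaks. These lists too were chosen with earlier results of these data known. The inflammasome list of 16 genes, with other sensors, caspases, regulators and effectors, had peaks at 13, and none at NAIP, CASP4 and CASP5. Of its 53 peaks 23 were called, 4 as gained and 19 as lost, with a median log2 fold change of -0.24. These are 43.4% called, 7.55% gained and 35.9% lost, beside 42.0%, 21.3% and 20.7% of all peaks and their median of -0.02. Among them, RUNX1 fell 3.37-fold at a peak within AIM2, the sensor of cytosolic DNA (log2 fold change -1.75 ± 0.25 SE, adjusted p = 1.30e-10). It also fell within BCO2, 14911 bp from IL18, a cytokine cut by caspase-1 (-1.55 ± 0.24 SE, adjusted p = 2.29e-09). The peak over IL18 itself was not called (-0.25 ± 0.22 SE, adjusted p = 0.388). Another loss lay within RNF121, 6929 bp upstream of IL18BP, the soluble antagonist of IL-18 (-2.37 ± 0.37 SE, adjusted p = 3.42e-09). Near GSDMD, the pore-forming effector, 5 of 7 peaks were lost, including the peak 4634 bp from the gene (-0.82 ± 0.17 SE, adjusted p = 8.74e-06). A gain lay within CARD19, 9292 bp downstream of NINJ1, which ruptures the membrane of dying cells (1.25 ± 0.23 SE, adjusted p = 9.98e-07). The NINJ1 peaks at 952 bp and over its promoter were not called (adjusted p = 0.502 and 0.923). Another gain lay within LIX1L, 41037 bp from TXNIP (1.25 ± 0.13 SE, adjusted p = 8.26e-21). Of the 9 TXNIP peaks, 1 was gained and 2 were lost. Both losses lay nearer the gene, at 5318 bp (-0.42 ± 0.16 SE, adjusted p = 0.0200) and 11333 bp (-0.24 ± 0.10 SE, adjusted p = 0.0386). Neither loss was called after centring on 10 Mb windows (adjusted p = 0.0689 and 0.201). The nearer of the 2 IL18BP peaks, 1615 bp upstream and also within RNF121 at chr11:71996781-71997294, was gained 2.43-fold (1.28 ± 0.38 SE, adjusted p = 0.00318). Both IL18BP peaks held few reads, 1 to 27 per library at the gain and 4 to 27 at the loss. DESeq2 called the loss in each batch alone but the gain in neither (adjusted p = 0.0646 in batch 1 and 0.227 in batch 2). With fold changes centred on the median of each 10 Mb window, 6 of the 53 peaks were gained and 15 lost (11.3% and 28.3%, beside 21.6% and 19.2% of all peaks).

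The list of 13 cytokine receptor genes had peaks at all of them, 48 in number, with 22 called, 9 as gained and 13 as lost, and a median log2 fold change of -0.02. The 45.8% called were near the 42.0% of all peaks. After the same centring 21 were called (43.75%, beside 40.9% of all peaks), 12 as gained and 9 as lost, so the majority among its calls turned. RUNX1 rose 2.09-fold within IL6R, the receptor of IL-6 (1.07 ± 0.13 SE, adjusted p = 3.95e-15), and 3.15-fold near IL10RB, a chain of the IL-10 receptor (1.66 ± 0.24 SE, adjusted p = 2.71e-10). Both loci also held losses: 4 of the 16 IL6R peaks were gained and 4 lost, and 1 of the 5 IL10RB peaks was gained and 2 lost. Near IL6R the losses included a 3.22-fold one 23825 bp downstream at chr1:154493275-154493724 (-1.69 ± 0.31 SE, adjusted p = 4.29e-07) and one over the IL6R promoter (-0.38 ± 0.09 SE, adjusted p = 7.05e-05). After centring the 3.22-fold loss held (-1.50, adjusted p = 8.01e-06), while the promoter loss was no longer called (-0.19, adjusted p = 0.0575). Near IL6ST, which encodes gp130, RUNX1 rose at a weak peak within IL31RA (1.73 ± 0.37 SE, adjusted p = 2.19e-05). It fell near LIFR at a strong peak within EGFLAM (-0.53 ± 0.10 SE, adjusted p = 7.82e-07). This loss was smaller after centring (-0.23, adjusted p = 0.0443).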

How the data were processed

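RUNX1 ChIP-seq of THP-1 cells (PU.1 knockdown or scramble control) was analysed from the deposited table of raw counts, one row per peak and one column per library, without normalization. The authors' methods name bowtie2 for alignment, after which duplicate reads and minor contigs were dropped, macs2 for peaks of each condition and batch, a filter on peaks seen in both batches, a merge of both conditions and featureCounts for the deposited counts. Versions are not given in the sources used here. The deposited table also gives peak widths in bp, another value that was used only for levels per kb. The same libraries served for peak calling and for the comparison, which are therefore not independent. Totals are reads within peaks.

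The methods name a mouse build (GRCm38) and the submitters' processing notes list GRCm38 and GRCh38. The coordinates were taken as GRCh38, since 20.4% of peaks touched a RefSeq promoter window in place and 2.29% after a shift by 100000 bp. Gene spans and promoter windows come from RefSeq GRCh38.p14.

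DESeq2 1.42.0 in R 4.3.3 was fitted to all 26642 peaks with batch as a covariate (6 against 6 libraries), and p-values were adjusted over all peaks. Each batch was also fitted alone, and edgeR 4.0.16 was the alternative test. Other alternatives were size factors from TMM or totals, no batch term, a replicate block, a minimum of 10 counts, stricter thresholds, regional centring and leaving out each library. Scripts were tested on simulated data. Intervals of 95% are the estimate with its normal error. All called peaks, and the strongest and nearest peak of each gene, were named, with the called peak of smallest adjusted p for each gene of the further lists, at most 10 genes in all. A few peaks beyond this rule were added after their values were seen: the IL1RN promoter, the OSM peak at 6299 bp, and IL6R, IL18BP and TXNIP peaks of the opposite direction. Peaks near IL18 and NINJ1 that were not called were added in the same way. The strongest PYCARD peak is not reported here by itself. The genes and lists were chosen with earlier results of these data known.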

Additional observations from a re-analysis of the deposited data

Results flagged for a closer look

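In 66 groups of 6 libraries (control and knockdown at each of the 33 peaks), 5 had a library far from the others by Dixon's criterion, where chance gives about 3.3. At the shared peak of IL1A and IL1B, control replicate 1 had 24.7 normalized counts from 19 reads, and the other controls had 12.1 to 15.8. At the IL1RN peak chr2:113111792-113112364, knockdown replicate 1 had 8.22 counts from 9 reads beside 18.6 to 22.4. At the LST1 promoter peak near TNF, control replicate 3 had 127 counts (126.7) beside 94.8 to 107. At the NCR3 peak near TNF, knockdown replicate 3 had 14.3 counts (14.25) from 12 reads beside 23.6 to 24.7. At the PYCARD peak chr16:31221404-31222297, control replicate 6 had 12.6 counts from 12 reads beside 22.3 to 26.1. Of these libraries, none is the same in more than 1 of the 5 groups.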

How the results depend on the processing

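None of the peaks named by rule near the 10 genes changed sign under any alternative that was run. Among the 33 peaks, a minimum of 10 counts in every library left 20 peaks to test, with 9 called and 3 lost. A fold change over 2 left 6 calls (3 gained, 3 lost). A 10 kb window gave 7 calls among 16 peaks (4 gained, 3 lost), and a 100 kb window 28 calls among 61 peaks (19 gained, 9 lost). Over all peaks 21.3% were gained and 20.7% lost, and the windows were not tested against these shares. Within batch 1, edgeR called 13 peaks where DESeq2 called 5. No share of all peaks called is given for this fit, the minimum of 10 counts, the replicate block or the fits without 1 library. Their counts are therefore not compared with the table. Leaving out 1 library gave 11 to 14 calls (6 to 9 gained, 5 to 6 lost) and a median log2 fold change of 0.03 to 0.11. Within batch 1 this gave 0 to 3 calls, with 0 without knockdown replicate 1 or 2, where the lone knockdown library is assumed to vary like the controls, 1 without control replicate 2 or 3 and 3 without control replicate 1. Within batch 2 it gave 4 to 8 calls, with 4 without control replicate 6 and 5 without knockdown replicate 5 or 6. The loss 25293 bp upstream of NLRP3 also lost its call under TMM size factors (adjusted p = 0.0552), total counts (0.0634), no batch term (0.0633), the minimum of 10 counts (0.142) and centring on 10 Mb windows (0.135). All 15 calls held in edgeR. After centring 14 held and 16 of the 33 peaks were called (10 gained, 6 lost), beside 40.9% of all peaks (21.6% gained, 19.2% lost). The cause was not tested, apart from the fewer libraries or peaks that some alternatives leave by construction.

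Replicate numbers did not pair the samples: deviations of libraries with the same number correlated at -0.06 to 0.01, and number 3 stands in batch 1 for the control and batch 2 for the knockdown. With the replicate block in place of batch, 12 peaks were called (7 gained, 5 lost). The 3 calls lost were those near NLRP3 at 25293 bp (adjusted p = 0.171) and 4159 bp (0.0833) and near TNF within NCR3 (0.101).

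Of the 33 peaks, 20 had at least 10 counts in every library, beside 18255 of the 26642 peaks in the table. The other 13 had under 10 counts in some library, and 6 of these were called: the peak shared by IL1A and IL1B, the IL1A loss at 1057 bp, both PYCARD gains, the NLRP3 gain at 4159 bp and the OSM gain at 1252 bp. No share of calls is given for such peaks of the whole table. IL6 was also among the 13. Whether depth sets their estimates was not tested. The count of peaks without overlap was recomputed with total counts as size factors, chosen after seeing the data, and was again 11. No share of all peaks is given for this recount, so it is not compared with the table.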
